A study of Mus musculus with 6 samples.

Results

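The miR-101 family was examined in small RNA libraries of mouse prefrontal cortex. Its members were taken by name (mmu-miR-101a-3p, mmu-miR-101a-5p and mmu-miR-101b-3p, where mmu stands for Mus musculus), each with any isoform listed under that name. Of the 3 names, 1 had reads in the table analysed here, out of 1013 distinct small RNA sequences: mmu-miR-101a-3p had 1 entry, whereas mmu-miR-101a-5p and mmu-miR-101b-3p had 0. The tissue came from male C57BL/6 mice, an inbred laboratory strain, which started at 5 weeks of age and are labelled as 30 weeks old. They received PS NPs, polystyrene particles of nanometre size, by oral gavage once a day for 6 months at 50 mg/kg body weight, and control mice were given water (0 mg/kg). Each group had 3 libraries, and nothing in the labels says whether each library came from 1 mouse or from pooled tissue.

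A miRNA guides the Argonaute protein to messenger RNAs that pair with its seed, bases 2 to 8 from its 5′ end, and lowers their translation and stability. The strand that is loaded into Argonaute is the guide, and the other strand of the hairpin precursor is mostly degraded. In miR-101 the 3p strand is the guide. miR-101 is known for repressing Ezh2, the histone H3K27 methyltransferase of the Polycomb complex, in human tumours, for repressing the amyloid precursor protein gene App and the ataxin gene Atxn1 in cultured cells, and for limiting excitability in developing mouse hippocampus.

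The mouse genome encodes the family at several hairpins. The RefSeq record of Mir101a (GRCm38.p6) lies at chr4:101346945-101347027 on the minus strand, within an exon of the lincRNA gene E130102H24Rik on the same strand in GENCODE M21. Mir101b lies at chr19:29135279-29135375 on the plus strand, within the protein-coding gene Rcl1 and outside its annotated exons. Both precursors are shown to locate the strands, with the annotated mature strands in capitals.
Mir101a hairpin: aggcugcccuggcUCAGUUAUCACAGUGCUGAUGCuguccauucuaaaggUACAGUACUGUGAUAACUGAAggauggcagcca
Mir101b hairpin: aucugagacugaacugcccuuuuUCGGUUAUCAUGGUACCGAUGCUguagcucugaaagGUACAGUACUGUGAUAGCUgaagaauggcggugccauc

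The sequence that carried the miR-101a-3p reads started 1 base upstream of the RefSeq mature strand. The listed sequence and the RefSeq strands are set side by side because this base moves the seed, which is in capitals.
miR-101a-3p as listed with its reads: gUACAGUAcugugauaacuga
miR-101a-3p in RefSeq: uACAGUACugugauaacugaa
miR-101b-3p in RefSeq: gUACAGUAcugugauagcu
miR-101c in RefSeq: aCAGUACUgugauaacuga

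The listed sequence matched positions 50 to 70 of the Mir101a hairpin with 0 mismatches (chr4:101346958-101346978), whereas RefSeq places the mature strand at positions 51 to 71. Its bases 2 to 8 read UACAGUA, which among the RefSeq mouse mature strands is the seed of 1 miRNA, miR-101b-3p. Bases 2 to 8 of the RefSeq miR-101a-3p strand read ACAGUAC. The name in the table carries the same information, a start extended by 1 base (L+1) and an end shortened by 1 base (R-1). Such a difference in seed was found for 58 of the 466 tested mouse-named sequences with a RefSeq mature strand (12.4%), and these 58 held 1.28% of the reads of the 466. The table gives 1 sequence for this name, so the share of reads that began at the annotated base is unknown.

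The same sequence was listed a second time under a rat name, miR-101b-3p, with 1 substitution stated in the name. Aligned with the Mir101b hairpin at positions 60 to 80, the listed sequence differed by A17G (the listed base first, counted from 1 at its 5′ end, then the hairpin's base), so it matches Mir101a and not Mir101b over its whole length. The RefSeq miR-101c strand lies whole within the listed sequence, and no comparison with a Mir101c hairpin was made. The window of the Mir101b hairpin is printed with its differing base in capitals.
Mir101b hairpin window: guacaguacugugauaGcuga
Among the 1013 sequences, 0 shared a run of 12 bases with this window across that base, and 0 shared a run of 12 bases with either 5p strand. miR-101b-3p and miR-101a-5p were therefore not quantified, and neither the ratio of the paralogs nor the ratio of the 2 strands of Mir101a could be computed. The labels and file headers do not say whether reads of miR-101b-3p or miR-101c were counted under the listed sequence.

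Another entry, named for miR-101c, held the same sequence with 1 added base at its 3′ end. Its estimated reads were 3.00, 0 and 1.67 in the controls and 2.00, 1.67 and 2.67 with PS NPs. In each of the 6 libraries, 3 times this value was a whole number, and so was the sum over all 3 entries (within 1e-06), as when reads that fit 3 entries are divided among them. The 3 entries together held 2319, 2864 and 2091 reads in control libraries 1 to 3 and 2023, 5346 and 4118 reads in PS NP libraries 1 to 3. The miR-101c entry thus added almost nothing, and the values below are those of the miR-101a-3p sequence.

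The libraries held 6170654 to 9905746 reads assigned to small RNAs. Pearson's r of log2 CPM, computed across sequences, lay between 0.971 and 0.984 for pairs of libraries of 1 group and between 0.967 and 0.984 for pairs across groups. CPM values give the reads of a sequence as a share of its library's TMM-scaled total. As a check on the tissue, the summed level of 4 neuronal miRNAs (miR-124-3p, miR-9-5p, miR-128-3p and miR-138-5p) was 149910 to 206066 CPM. The summed level of the erythroid markers (miR-451a and miR-144-3p) was 37.1 to 91.9 CPM, that of the microglia and leukocyte markers miR-223-3p and miR-155-5p 10.97 to 19.9 CPM, that of the muscle markers miR-1a-3p and miR-133a-3p 101.8 to 186.3 CPM, that of the liver marker miR-122-5p 4.68 to 8.25 CPM and that of the hindbrain marker miR-10b-5p 6.14 to 25.96 CPM. The choroid plexus marker miR-204-5p stood at 1760 to 7198 CPM. The endothelial marker miR-126a-3p stood at 1388 to 1823 CPM in controls and 1863 to 2363 CPM with PS NPs, 2 ranges that did not overlap. The groups did not overlap, in either direction, for 61 of the 639 sequences tested (9.55%). Of the 639, 0 passed the adjusted threshold of 0.05 in the edgeR test.

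miR-101a-3p was a moderately abundant miRNA of the cortex. By reads it ranked 148, 117 and 131 in control libraries 1 to 3 and 140, 103 and 125 in PS NP libraries 1 to 3, among the 718 to 837 sequences with reads in a library. Its level was 268, 419 and 337 CPM in control libraries 1, 2 and 3. With PS NPs it was 303, 595 and 373 CPM in libraries 1, 2 and 3. PS NP library 2 was the highest of all 6 and control library 1 the lowest, while PS NP library 1 lay below 2 of the controls, so the groups overlapped. The endothelial marker was higher in each PS NP library than in any control, and groups without overlap made up 9.55% of the sequences tested. The part of this marker in the level of miR-101a-3p was not tested. In the order of levels, control and PS NP libraries alternated.

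**Figure D1:**
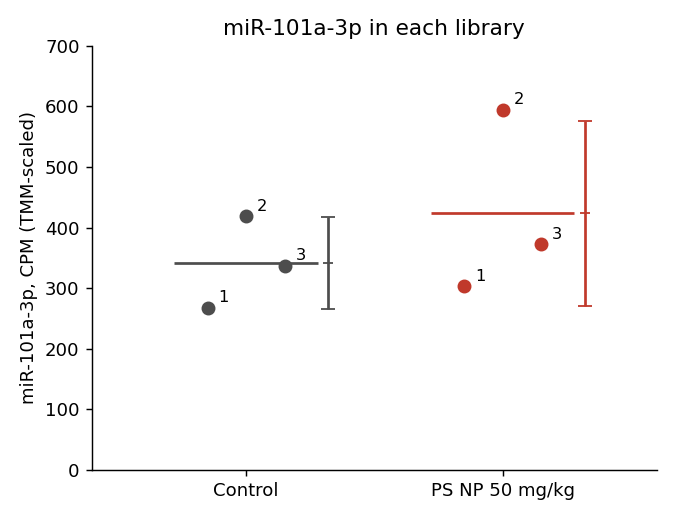
Level of miR-101a-3p in CPM (vertical axis, TMM-scaled) in the 3 control and the 3 PS NP libraries. Points are libraries with their number, horizontal lines are group means and the bars beside them are SDs. The controls lie between 268 and 419 CPM and the PS NP libraries between 303 and 595 CPM.

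The comparison of the groups asked whether the level of miR-101a-3p in prefrontal cortex differed after PS NP exposure, the series' stated aim being candidate miRNA biomarkers. The mean was 341 ± 75.6 CPM in controls and 424 ± 152 CPM with PS NPs (SD, n = 3 each). This is a 1.24-fold higher mean in the fit, or a log2 difference of 0.31 (SE 0.28, 95% interval −0.32 to 0.94). The difference was not larger than the spread between libraries (edgeR quasi-likelihood test, unadjusted p = 0.290, Benjamini-Hochberg adjusted p = 0.906). Of the 639 sequences tested, 0 passed the adjusted threshold of 0.05 (0%), and 15 had an unadjusted p under 0.05 (2.35%). With DESeq2 and limma-voom 0 passed as well, with 15 and 17 at an unadjusted p under 0.05. miR-101a-3p was not among the 15, as 190 sequences had a smaller p.

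The sign of this difference rested on PS NP library 2. Without that library the log2 difference was −0.032 (unadjusted p = 0.903, adjusted p = 0.990, edgeR), and without PS NP library 1 it was 0.50 (adjusted p = 0.720, edgeR). It was 0.17 without control library 1 and 0.48 without control library 2. In the fit with all libraries, the 95% interval includes 0, a higher level by up to 0.94 and a lower one down to −0.32 (log2 scale). In bulk tissue, fewer cells that make a miRNA and less of it in each cell cannot be told apart.

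**Figure D2:**
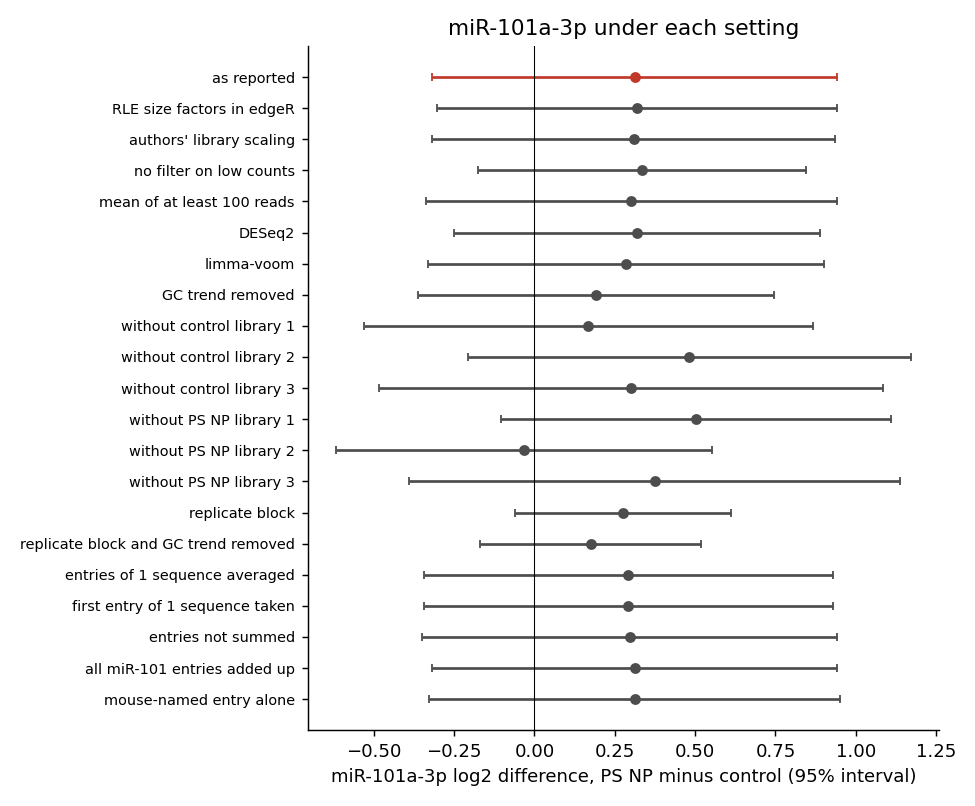
The log2 difference of miR-101a-3p (PS NP minus control, horizontal axis) with its 95% interval as reported (red) and under each other setting (grey). Every interval includes 0, and the estimate is lowest, −0.032, when PS NP library 2 is left out and highest, 0.50, when PS NP library 1 is.

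miR-101a-3p varied more between libraries of 1 group than most sequences of at least 100 CPM. Its coefficient of variation was 22.2% in controls and 36.0% with PS NPs, whereas 2021 to 5344 reads per library give a counting error of 1.37% to 2.22%. The within-group SD of log2 CPM was 0.42 for miR-101a-3p against a median of 0.24 for the 228 sequences whose mean reached 100 CPM. Among them, 13.6% had a larger SD than miR-101a-3p, and 14.5% had a larger log2 difference in absolute size. The half-width of the 95% interval of its log2 difference was 0.63, against a median of 0.45 for those 228. The counting error treats reads as independent molecules, and the effect of depth was not tested.

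The listed sequence has a GC content of 38.1%, against a mean of 50.6% over the 639 tested. Across these sequences, which share their libraries and are not independent replicates, the log2 difference ran against GC content (Spearman's rho −0.47, n = 639). The 85 other tested sequences with a GC content under 40% had a median log2 CPM, relative to the mean of the 6 libraries, of −0.18, −0.15 and 0.033 in control libraries 1 to 3 and −0.078, 0.16 and 0.24 in PS NP libraries 1 to 3. The corresponding values of miR-101a-3p were −0.46, 0.18 and −0.13 in the controls and −0.28, 0.69 and 0.012 with PS NPs. PS NP library 2 was thus high for both and control library 1 low for both. Control library 2 was high for miR-101a-3p and low for the other sequences of low GC content. Control library 3 was low for miR-101a-3p (−0.13) and slightly above the mean for the others (0.033). The others were highest in PS NP library 3 (0.24), where miR-101a-3p was near its mean (0.012). With the trend in GC content removed from each library, the log2 difference of miR-101a-3p was 0.19 (SE 0.24, edgeR adjusted p = 0.999).

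**Figure D3:**
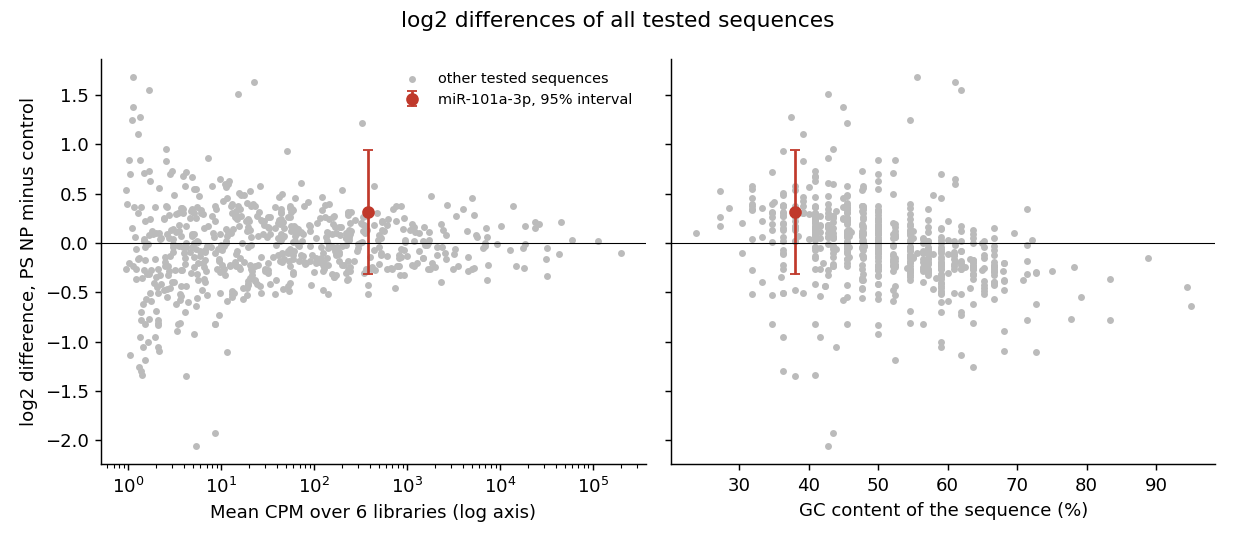
The log2 difference (PS NP minus control, vertical axis) of the 639 tested sequences against their mean CPM on a log axis (left) and their GC content in percent (right), with miR-101a-3p in red and its 95% interval. miR-101a-3p lies at 0.31, inside the cloud of sequences of like abundance, on the side of low GC content, toward which the log2 differences rise (rho −0.47).

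The sequences whose levels ran most like miR-101a-3p over the 6 libraries were sought among 227 others that averaged 100 CPM or more. The closest was miR-379-3p, from the first hairpin of the imprinted Mirg cluster, with Pearson's r of 0.965 and Spearman's rho of 1 in log2 CPM. It measured 299, 403 and 357 CPM in control libraries 1 to 3 and 348, 450 and 366 CPM in PS NP libraries 1 to 3. Its libraries stood in the same order as those of miR-101a-3p, but spanned 1.50-fold from lowest to highest against 2.22-fold.

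Next came miR-127-5p, from a hairpin antisense to the imprinted gene Rtl1, with r of 0.963 and rho of 0.943. Its control libraries stood at 170, 209 and 176 CPM and its PS NP libraries at 165, 238 and 185 CPM, with PS NP library 2 again the highest.

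The other was miR-204-5p, made from an intron of Trpm3 and abundant in choroid plexus, with r of 0.947 and rho of 1. Control libraries 1 to 3 stood at 1760, 5603 and 3248 CPM and PS NP libraries 1 to 3 at 2048, 7198 and 4265 CPM, a 4.09-fold span. miR-204-5p was the 1 choroid plexus marker used here, and it was above 0 in all 6 libraries, at 1760 to 5603 CPM in controls and 2048 to 7198 CPM with PS NPs. The part of choroid plexus in the level of miR-101a-3p was not tested. Without the 2 libraries farthest from the median of miR-101a-3p (PS NP library 2 and control library 1), r over the remaining 4 was 0.944 for miR-379-3p, 0.988 for miR-127-5p and 0.988 for miR-204-5p. These are descriptions of 6 libraries that share their scaling, and 9 of the 227 sequences had r above 0.9.

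**Figure D4:**
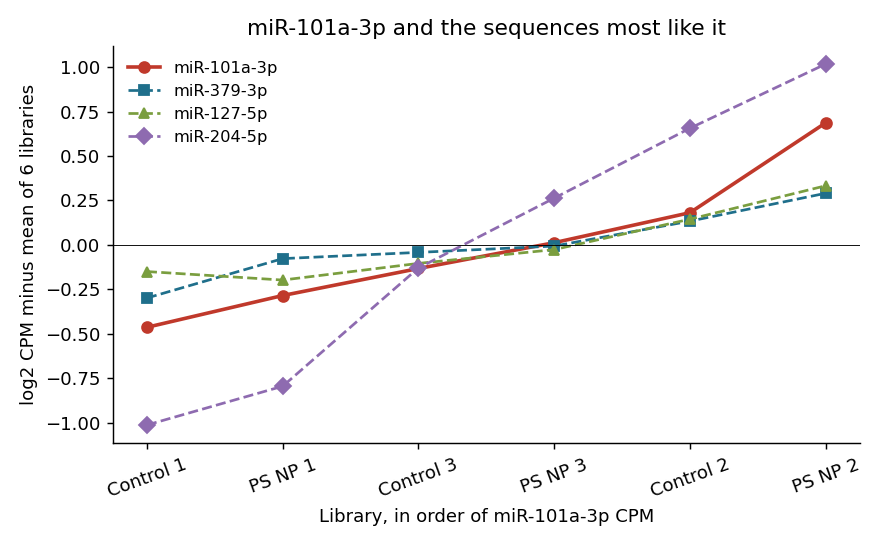
log2 CPM of miR-101a-3p (red) and of the 3 sequences most like it, each minus its mean over the 6 libraries (vertical axis), with libraries ordered by the level of miR-101a-3p (horizontal axis). Control and PS NP libraries alternate along the axis, and miR-204-5p spans the widest range, 4.09-fold from lowest to highest.

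Other miRNAs that carry the letters UACAGU (bases 2 to 7 of the listed sequence) at position 1, 2 or 3 were few. They were 5 sequences: the miR-101c entry, miR-144-3p, miR-582-5p and miR-139-5p under a mouse and an opossum name. The seed of miR-144-3p, an erythroid miRNA, is shown because it differs from that of the RefSeq miR-101a-3p strand at its last base alone.
miR-144-3p in RefSeq: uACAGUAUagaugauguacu
miR-144-3p had 6 reads in control library 1 and was listed at 0 in the other 5 libraries. Of the pair, miR-101a-3p was the one with measurable reads in this cortex. Those reads were listed under a sequence with the seed UACAGUA, not the RefSeq seed compared here. The highly expressed miR-139-5p, from an intron of Pde2a, measured 15964, 17041 and 15207 CPM in control libraries 1 to 3 and 14976, 12944 and 13196 CPM in PS NP libraries 1 to 3. Its groups did not overlap, as for 61 of all 639 sequences (9.55%), and its log2 difference of −0.23 (95% interval −0.56 to 0.10) did not pass the test (edgeR adjusted p = 0.906). miR-582-5p measured 74.7 ± 16.9 and 75.7 ± 6.21 CPM (SD, n = 3 each), and the opossum-named sequence 3.06 ± 0.768 and 3.01 ± 1.31 CPM. Of the 3 that could be tested, 0 were called and 1 had a log2 difference above 0, with a median of −0.0068 against −0.017 for all 639.

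miRNAs reported to act on the same target genes were described as lists. For Ezh2 the list held miR-26a-5p, miR-124-3p, miR-138-5p, miR-214-3p and miR-217-5p, known mostly from human tumour cells, of which 4 were tested and 0 called. The median log2 difference of the 4 was 0.13 (0.031 without control library 2), and 3 of 4 were above 0, against 47.9% of all 639 sequences. miR-26a-5p, a highly expressed miRNA of neurons and glia, had means of 42378 ± 8919 CPM (controls) and 49070 ± 3935 CPM (PS NPs; SD, n = 3 each). The neuronal miR-124-3p measured 44818 ± 6451 and 41587 ± 8681 CPM, and miR-138-5p, which limits the size of dendritic spines in rat neurons, 521 ± 50.5 and 539 ± 75.5 CPM. miR-214-3p, a mesenchymal miRNA from the transcript Dnm3os, measured 2.15 ± 1.04 and 3.50 ± 1.16 CPM, and miR-217-5p had 0 to 13 reads and was not tested.

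For App the list held 6 names, of which 5 had reads and were tested and 0 were called. The median log2 difference was 0.26, with 4 of 5 above 0, and it was 0.20 with the GC trend removed. The 5 had GC contents of 36.4% to 47.8%, below the mean of 50.6% over all sequences tested. Among relatives of the miR-17/92 cluster, the control and PS NP means were 51.7 ± 5.79 and 65.5 ± 18.4 CPM for miR-17-5p, 18.5 ± 3.26 and 23.9 ± 10.4 CPM for miR-20a-5p and 30.5 ± 2.41 and 36.6 ± 5.04 CPM for miR-106b-5p (SD, n = 3 each). In all 3 the highest library was PS NP library 2, at 86.7, 35.3 and 40.3 CPM, as it was for miR-101a-3p. The median of the list without that library was 0.071. miR-16-5p, made in most cell types and abundant in red cells, measured 843 ± 272 and 1007 ± 112 CPM. Its log2 difference was 0.26, and 0.54 without control library 3 (edgeR unadjusted p = 0.0259, adjusted p = 0.770). The means were, for the neuronal miR-153-3p, 11.7 ± 4.25 and 9.76 ± 1.74 CPM.

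For Atxn1 the list held 3 names, of which miR-19b-3p and miR-130a-3p were tested and 0 called. The control and PS NP means were 20.2 ± 4.83 and 26.2 ± 7.42 CPM for miR-130a-3p and, for miR-19b-3p, a member of the miR-17/92 cluster, 2.45 ± 1.53 and 1.71 ± 1.71 CPM (SD, n = 3 each). Their log2 differences were 0.38 (SE 0.29) and −0.50 (SE 0.79), on opposite sides of 0. Without PS NP library 3 they were 0.11 and −0.068. With all 6 libraries, 0 of the 11 tested miRNAs of the 3 lists had an unadjusted p under 0.05 in the edgeR test, and the smallest adjusted p was 0.906.

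**Figure D5:**
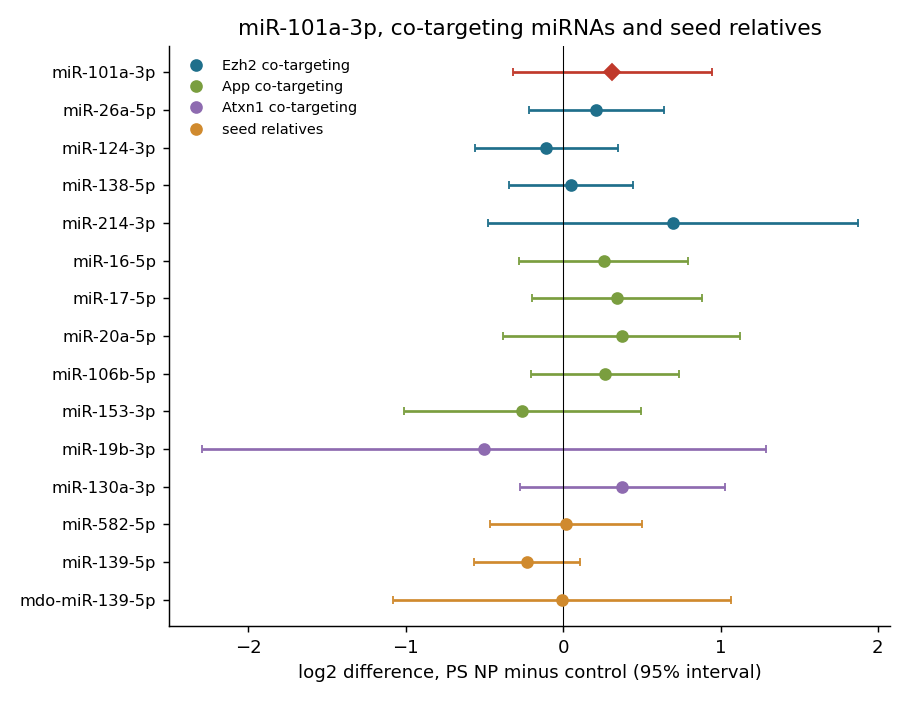
log2 difference (PS NP minus control, horizontal axis) with its 95% interval for miR-101a-3p (red diamond) and for the tested members of the Ezh2, App and Atxn1 lists and the seed relatives (points, by colour). Every interval includes 0, and the widest belongs to miR-19b-3p, at 2.45 CPM in controls.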

How the data were processed

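Total RNA was extracted with Trizol, libraries were made with the TruSeq Small RNA kit and ACGT101-miR removed adapter dimers, junk, low complexity reads, other RNA families and repeats, per the labels' protocols. No label or file header names the genome build, miRBase release or mapping settings. The deposited table lists raw values, which are estimated counts: reads per entry, divided where entries share them. Its norm values are a normalized signal the authors made as the raw value times 1 factor per library (0.714 to 1.27), used only for an alternative. Besides these, 3 lines were left unanalysed.

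The 1115 entries were summed to 1013 sequences and rounded. Those that reached 10 reads in 3 or more of the 6 libraries (639, holding at least 99.98% of reads) were tested with edgeR 4.0.16. The test was quasi-likelihood, with TMM factors 0.863 to 1.115 and Benjamini-Hochberg adjustment over all 639 (threshold 0.05). It was first run on counts simulated with a common spread for all sequences, whereas the spread in these libraries differed between sequences. DESeq2 1.42.0 and limma 3.58.1 were alternatives. The trend with GC content was a loess fit (span 0.75) per library, given to edgeR as an offset. Intervals are 95% from the fit. Tests for the paralog share and strand ratio were planned and could not be run. The named miRNAs were all members, seed relatives and list members, and the 3 sequences of highest Pearson r with miR-101a-3p. Tissue markers were neuronal, microglia and leukocyte, erythroid, endothelial, choroid plexus, hindbrain, muscle and liver miRNAs. In the lines analysed, 0 entries were named miR-142a-3p, miR-147-3p or miR-19a-3p. Members and lists were chosen with earlier results of these data known. Mature strands and hairpins are from RefSeq (GRCm38.p6), where 3 of 3 member names matched. The labels do not say that libraries came from separate animals, so p-values reflect library-to-library spread that may be technical.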

Additional observations from a re-analysis of the deposited data

How the results depend on the processing

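Under 21 alternatives the miR-101a-3p log2 difference missed the threshold each time (adjusted p 0.720 to 0.999) and was above 0 in 20. These were not all separate checks. Adding up all sequences of the name repeats the reported fit, as the name has 1 sequence. Averaging the entries of 1 sequence and taking the first entry gave the same value (0.29). Leaving out 1 library gave −0.032 (without PS NP library 2) to 0.50, and removing the GC trend gave 0.19. Adding up all miR-101 entries (0.31) and the mouse-named entry alone (0.31) were chosen after seeing the data. The count of sequences past the threshold was 0 in the 16 settings it was computed for, with 6 to 38 at an unadjusted p under 0.05 (29 with no filter, 9 with a mean of at least 100 reads). With the replicate block the log2 difference was 0.28 (edgeR unadjusted p = 0.0901, adjusted p = 0.748), 0.17 with the GC trend removed as well, and 32 sequences had an unadjusted p under 0.05. Deviations of same-numbered libraries correlated at 0.31, 0.15 and −0.17, and 3 of 6 libraries correlated best with their own number. These values do not settle whether the numbers mark pairs, and they were not taken as pairs. For miR-101a-3p each PS NP library stood above the control library of the same number. The SE of its log2 difference was 0.14 with the block and 0.28 without it.

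With single libraries left out, list medians ran from 0.031 to 0.25 (Ezh2), 0.071 to 0.37 (App), −0.23 to 0.57 (Atxn1, where 0.23, 0.57 and 0.41, without control library 1, control library 3 and PS NP library 2, are miR-130a-3p alone, as miR-19b-3p missed the filter) and −0.22 to 0.082 (seed relatives), and log2 differences from 0.058 to 0.36 (miR-26a-5p), 0.36 to 0.97 (miR-214-3p), 0.078 to 0.54 (miR-16-5p), 0.071 to 0.45 (miR-17-5p), 0.18 to 0.37 (miR-106b-5p), 0.11 to 0.57 (miR-130a-3p), −0.81 to −0.068 (miR-19b-3p), −0.30 to −0.19 (miR-139-5p), −0.26 to 0.027 (miR-124-3p), −0.089 to 0.13 (miR-138-5p), −0.035 to 0.61 (miR-20a-5p), −0.50 to 0.016 (miR-153-3p), −0.088 to 0.21 (miR-582-5p) and −0.36 to 0.27 (mdo-miR-139-5p). miR-582-5p turned to −0.078 with the GC trend removed and −0.072 with the block as well. mdo-miR-139-5p turned to 0.00058 with RLE, 0.012 with no filter and 0.047 with limma-voom. The causes were not tested. Alternatives for the paralog share and strand ratio were not run, since 1 strand had reads. miR-101a-3p had at least 2021 reads per library, whereas miR-144-3p (at most 6) and miR-217-5p (at most 13) had too few to be tested; the effect of depth was not tested.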
